A study of Mus musculus with 16 samples.

Results

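Hearts of mice that received nicotinamide mononucleotide (NMN) without doxorubicin were compared with hearts of mice that received neither, across all genes counted. The sham NMN group held 4 libraries and the sham vehicle group 4, together 8 of the 16 libraries of the study, and they were taken by their labels and by no measured value. All mice were wild-type C57BL/6 males of 8 weeks. Sham NMN mice were injected intraperitoneally with 500 mg/kg NMN and, 30 min later, with saline, and sham vehicle mice were given saline at both times. The other libraries came from doxorubicin NMN and doxorubicin vehicle mice, which received 15 mg/kg doxorubicin, an anthracycline cancer drug that injures heart muscle, in place of the second saline injection. Hearts were taken after 5 days, so 1 dose and 1 time were sampled, and the labels used here do not give the hour at which a heart was taken or say whether a library stands for 1 heart. The p-values below therefore measure the spread between these libraries, which may in part be technical. Where hearts are counted below, the count is of libraries.

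NMN is the direct precursor of nicotinamide adenine dinucleotide (NAD). Nicotinamide is turned into NMN by the enzyme Nampt, nicotinamide riboside is turned into NMN by the kinases Nmrk1 and Nmrk2, and the Nmnat enzymes join NMN to an adenylyl group to give NAD. NAD carries electrons in glycolysis, the citric acid cycle and fatty acid oxidation, on which the beating heart depends, and it is also used up by the sirtuin deacylases, by the PARP enzymes and by Cd38.

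The sham libraries held 14091967 to 16134402 counts, so that 3 counts stood for 0.186 to 0.213 CPM (the counts-per-million unit). Levels below are CPM scaled by the trimmed mean of M values (TMM) and are not corrected for gene length. Heart identity was plain in the 8 libraries: the 12 cardiomyocyte markers summed to 67300 to 75100 CPM in sham NMN and 70900 to 79400 CPM in sham vehicle libraries, while the 5 lung markers in the table summed to 0.202 to 0.521 CPM and 0.134 to 0.559 CPM. Mitochondrially encoded transcripts took 26.0 ± 0.885% of the counts in sham NMN and 26.4 ± 1.06% in sham vehicle hearts (SD, n = 4 each), a difference of -0.409 percentage points (exact two-sided permutation p = 0.686, where the smallest p possible with 4 against 4 is 0.0286).

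The libraries fell into 2 sets that crossed the treatment, and many results below are therefore also given with this split as a term of the model. Scand1, Cox11 and Mrps34 were averaged per library and the sets were divided where these averages left the widest gap, a choice made with earlier results of these data known. Replicates 1, 2 and 3 of sham NMN and replicates 1 and 2 of sham vehicle formed the larger set, and replicate 4 of sham NMN with replicates 3 and 4 of sham vehicle formed the smaller one. Mrps34, a mitochondrial ribosomal protein, had 28.2, 28.3, 23.7 and 0.897 CPM in sham NMN, against 26.6, 20.4, 0.454 and 0.432 CPM in sham vehicle. The first principal component of the 8 libraries, with 38.1% of the variance, followed the same line. The smaller set lay at 22.3 (sham NMN) and at 27.2 and 31.4 (sham vehicle), the larger set between -20.5 and -5.7. The mitochondrial share of counts divided likewise, at 27.3% (sham NMN) and 27.3 and 27.4% (sham vehicle) in the smaller set. In the larger set it was 25.8, 25.5 and 25.4% in sham NMN and 25.7 and 25.3% in sham vehicle. The part this plays in the difference between the groups was not tested.

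Genes of the circadian clock followed the split. In the molecular clock, Arntl and its partners Clock and Npas2 switch on the Per and Cry genes, whose proteins then shut Arntl off, so the arms peak at different times of day. Arntl had 3.42, 0.846, 1.28 and 23.7 CPM in sham NMN, against 2.05, 1.67, 27.6 and 27.2 CPM in sham vehicle. Per2, a repressor of the loop, ran the other way, with 59.9, 53.2, 62.4 and 6.14 CPM in sham NMN and 48.7, 67.9, 4.48 and 3.03 CPM in sham vehicle. Tef, a clock output factor, had 308, 319, 309 and 110 CPM in sham NMN and 308, 321, 97.6 and 96.8 CPM in sham vehicle. Every library of the smaller set was thus high for Arntl and low for Per2 and Tef, whichever treatment it carried. The mean log2 level of the repressor and output list minus that of the activator list was 2.12, 2.56, 2.34 and -0.13 in sham NMN. In sham vehicle it was 2.33, 2.41, -0.25 and -0.63. The activator list also holds Cry1 and Nfil3, which are themselves repressors, and members with a low mean level were left out of both means. In the model with both terms, 1614 of 13957 genes (11.6%) differed between the sets at an adjusted p under 0.05. Of these, 964 (6.91%) were lower and 650 (4.66%) higher in the smaller set. Among 14 clock repressor and output genes 13 were called lower there, and Nr1d1 was called higher (log2 difference 0.63). Of the 8 genes of the activator list 4 were called higher and 1 lower. Since the split was drawn on these libraries, those counts describe it and test nothing further.

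**Figure D1:**
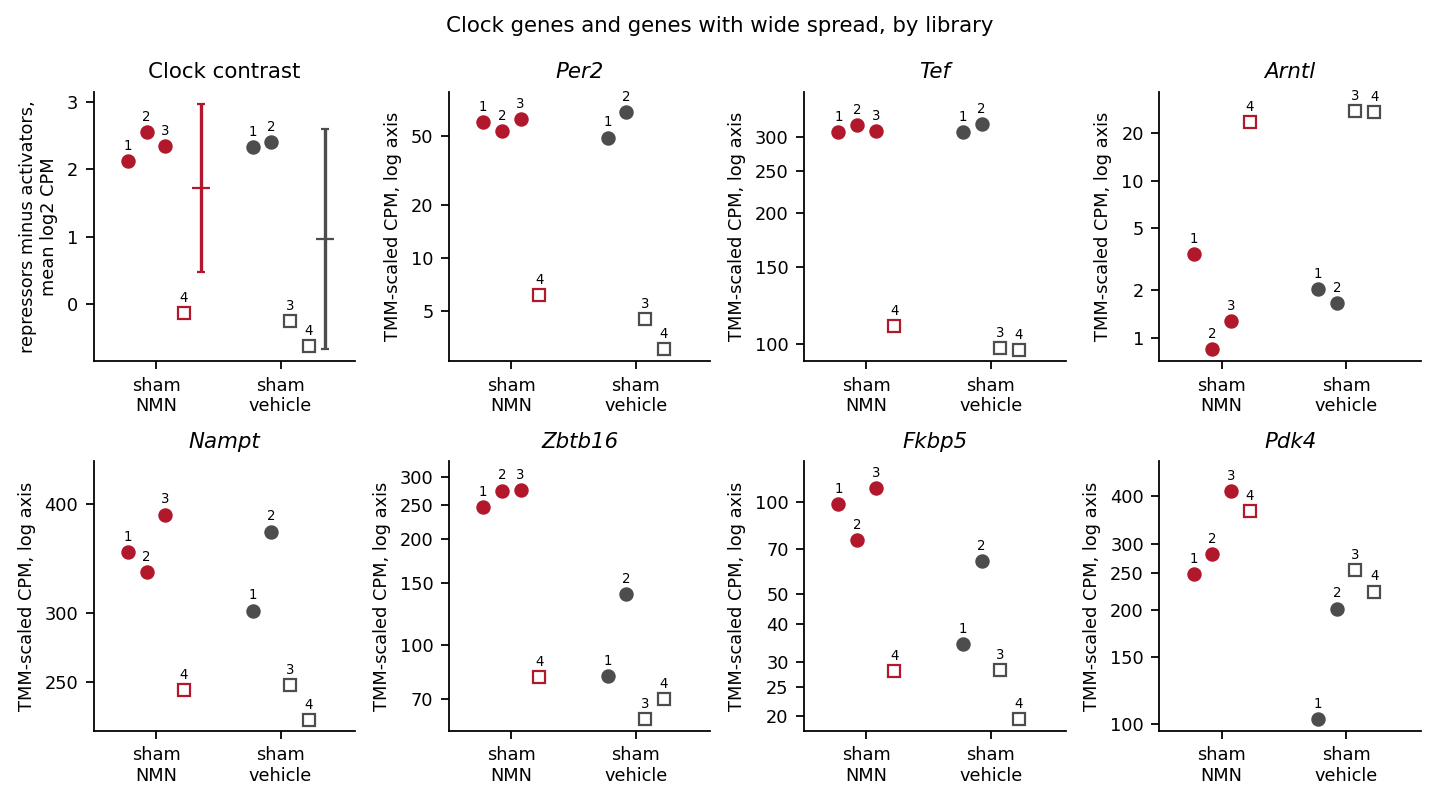
Clock genes and other genes of wide spread in each sham library, as TMM-scaled CPM on log axes, with sham NMN left of sham vehicle in every panel; the first panel gives the clock contrast in log2 units with mean ± SD bars. Filled circles are the larger set of libraries, open squares the smaller set and numbers the replicates; for Per2, Tef and Arntl the squares of both groups lie together, far from the circles, while Pdk4 does not divide that way.

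No gene passed the test between sham NMN and sham vehicle hearts. Of 30884 genes in the table, 13957 had enough counts to be tested, and 0 were called (0%) at an adjusted p under 0.05 in edgeR (quasi-likelihood F test, p-values adjusted after Benjamini and Hochberg), the smallest adjusted p being 0.924. At an unadjusted p under 0.05 there were 648 genes (4.64%), 367 with a higher (2.63%) and 281 with a lower level (2.01%) in sham NMN. The 4 sham NMN values lay wholly above the 4 sham vehicle values for 199 genes (1.43%) and wholly below them for 151 (1.08%). Only DESeq2 and the fit without a filter on low counts, among the tools and filters run on all 8 libraries, called genes: both called Hbb-bs and Hbb-bt lower in sham NMN (0.0143% and 0.00754% of the genes tested), and DESeq2 had 559 genes at an unadjusted p under 0.05. With the split as a term 0 genes were called (0%), 797 had an unadjusted p under 0.05 (5.71%) and the smallest adjusted p was 0.231.

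The comparison also bounds the size of the differences. The 95% interval of the fold lay inside a 2-fold change in either direction for 12347 genes (88.5% of those tested), and for 47.2% of 26535 genes without the filter on low counts. Among the 8280 genes with a mean level of at least 10 CPM this held for 8109 (97.9%). The median standard error was 0.131 on the log2 scale, and log2 folds, always sham NMN over sham vehicle, were above 0 for 7022 genes and below 0 for 6935, with a median of 0.00. A p that misses the threshold does not show that a gene is at the same level in both groups.

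**Figure D2:**
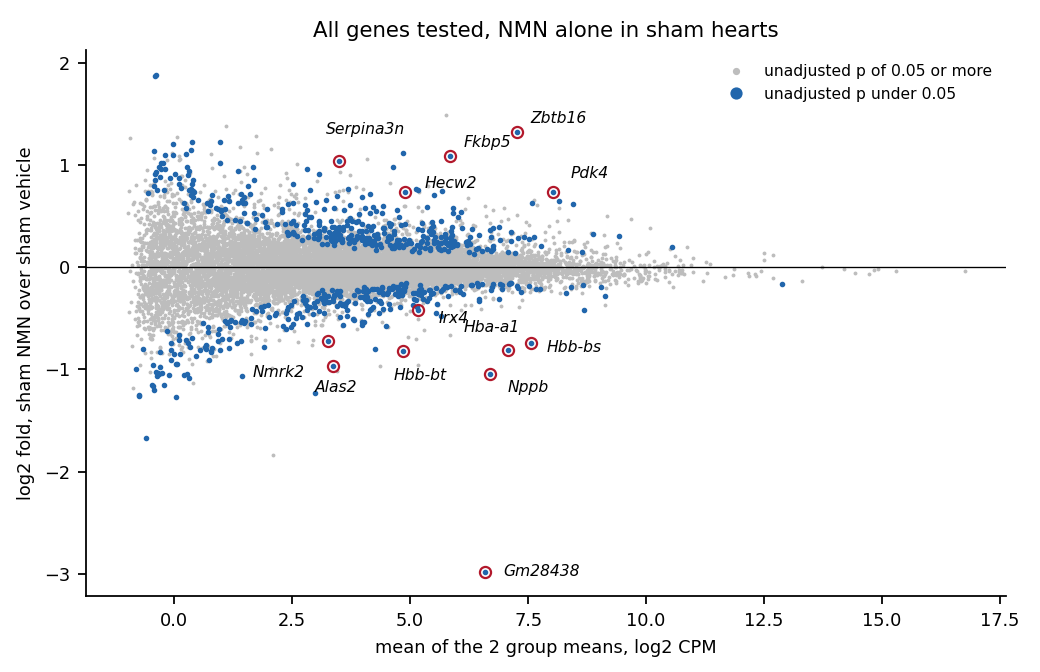
Each point is 1 of the 13957 genes tested, placed by its mean level in log2 CPM and by its log2 fold of sham NMN over sham vehicle. Blue points have an unadjusted p under 0.05 and ringed points are genes named in the text; most points lie within 1 log2 unit of 0, and Gm28438 stands alone at the bottom, at -2.98.

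Hbb-bt and Hbb-bs, genes of red blood cells, gave the 2 smallest p-values of the comparison. The 4 globin genes and Alas2 code for the alpha and beta chains of haemoglobin and for the first enzyme of haem synthesis in red cell precursors. All 5 had lower levels in sham NMN than in sham vehicle hearts, with log2 folds of -0.96 to -0.58, but none passed the adjusted threshold in the quasi-likelihood test. The 250 bases before the RefSeq start of 4 of these genes are shown because genes of this group are read together in red cell precursors, through GATA1, which binds GATA motifs, through KLF1, which binds CACCC boxes, and through factors at CCAAT boxes. They come from RefSeq (GRCm38.p6): Hbb-bs from chr7:103827929-103828178 (minus strand), Hbb-bt from chr7:103813924-103814173 (minus strand), Hba-a1 from chr11:32283422-32283671 (plus strand) and Alas2 from chrX:150547167-150547416 (plus strand). The GENCODE spans given for these genes below begin earlier than the RefSeq starts, so each window lies partly inside its span. Capitals mark the GATA motif (GATAA), the CACCC box and the CCAAT box on either strand, and no marked motif overlaps another kind.
Hbb-bs: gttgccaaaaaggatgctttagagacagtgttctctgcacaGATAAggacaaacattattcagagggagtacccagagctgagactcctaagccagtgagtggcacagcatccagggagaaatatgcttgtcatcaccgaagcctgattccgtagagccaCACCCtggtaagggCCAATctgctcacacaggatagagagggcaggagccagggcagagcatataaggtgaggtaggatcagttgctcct
Hbb-bt: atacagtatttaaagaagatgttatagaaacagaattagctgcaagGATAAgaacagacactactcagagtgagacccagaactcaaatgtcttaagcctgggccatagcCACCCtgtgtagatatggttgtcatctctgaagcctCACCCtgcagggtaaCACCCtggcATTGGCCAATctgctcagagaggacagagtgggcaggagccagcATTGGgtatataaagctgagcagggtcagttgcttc
Hba-a1: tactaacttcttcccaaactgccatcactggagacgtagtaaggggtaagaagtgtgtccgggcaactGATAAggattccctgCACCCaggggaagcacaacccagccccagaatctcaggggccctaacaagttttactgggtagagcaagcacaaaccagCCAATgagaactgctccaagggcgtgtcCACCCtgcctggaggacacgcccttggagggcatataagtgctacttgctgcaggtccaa
Alas2: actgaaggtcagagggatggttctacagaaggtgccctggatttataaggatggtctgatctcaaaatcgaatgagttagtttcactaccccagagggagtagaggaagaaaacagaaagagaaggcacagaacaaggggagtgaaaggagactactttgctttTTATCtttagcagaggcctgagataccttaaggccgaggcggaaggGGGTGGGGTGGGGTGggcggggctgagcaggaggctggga
GATAA stood in all 4 windows, as in 23% of the 27025 promoter windows of the same length, CACCC in all 4 (51.3% of windows) and CCAAT in 3 of the 4, not in that of Alas2 (34.5% of windows). The GATA motif began 209 bases before the start in Hbb-bs, 204 in Hbb-bt, 182 in Hba-a1 and 86 in Alas2. A match describes the letters and does not show that a factor binds there. Of the 250 bases of the Hba-a1 window, 247 were found unchanged in that of Hba-a2 after a shift, and with such near-identical copies the reads of Hba-a1 and Hba-a2, and likewise of Hbb-bs and Hbb-bt, may have been divided between partners in ways the counting does not show.

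Hbb-bs (chr7:103826534-103828096, minus strand), an adult beta-globin gene, had 138, 131, 149 and 151 CPM in sham NMN, against 183, 277, 281 and 210 CPM in sham vehicle. All 4 NMN values lay below all 4 vehicle values, with means of 142 ± 9.36 and 238 ± 48.9 CPM (SD, n = 4 each) and a log2 fold of -0.74 ± 0.13 (SE; 95% interval -1.03 to -0.45; unadjusted p = 0.000167, adjusted p = 0.924 in edgeR). Hbb-bt (chr7:103812524-103813996, minus strand), the other adult beta-globin gene, had 22.3, 19.9, 17.2 and 24.0 CPM in sham NMN, against 30.2, 40.4, 43.6 and 32.8 CPM in sham vehicle. Its log2 fold was -0.82 ± 0.14 (unadjusted p = 0.000116, the smallest of all genes), and again the groups did not overlap. Adjusted p-values for both genes were 0.000536 in DESeq2 and 0.0159 in edgeR without the filter on low counts. In these hearts, as in any bulk tissue, fewer cells of a type and less RNA per cell cannot be told apart.

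Alas2 (chrX:150547375-150570638) had 6.78, 5.73, 6.32 and 8.97 CPM in sham NMN, against 9.01, 16.2, 16.9 and 12.2 CPM in sham vehicle, where the lowest vehicle library stood just above the highest NMN library. Its log2 fold was -0.96 ± 0.21. Hba-a2 (chr11:32296489-32297298), an alpha-globin gene, had 4.71, 4.43, 4.30 and 4.49 CPM in sham NMN and 5.59, 7.22, 7.98 and 6.11 CPM in sham vehicle, with a log2 fold of -0.58 ± 0.15. Hba-a1 (chr11:32283511-32284465), its partner, was named after its values were seen: it had 88.2, 69.8, 89.7 and 142 CPM in sham NMN, against 113, 180, 218 and 170 CPM in sham vehicle. Its groups overlapped through replicate 4 of sham NMN, and its log2 fold was -0.81 ± 0.23. With the split as a term the folds were -0.72 for Hbb-bs, -0.77 for Hbb-bt, -0.89 for Alas2, -0.56 for Hba-a2 and -0.69 for Hba-a1.

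Of the 8 red cell genes listed, 7 were in the table and 5 had enough counts to be tested. All 5 had an unadjusted p under 0.05 with a lower level in sham NMN, beside 2.01% of all genes, and 4 of the 5 had groups that did not overlap, beside 1.08%. The median log2 fold was -0.81, and between -0.90 and -0.70 over the alternative settings. The list summed to 233 to 331 CPM in sham NMN libraries and to 342 to 568 CPM in sham vehicle libraries. Other blood cell lists had lower sums: the platelet markers summed to 10.5 to 22.3 CPM in sham NMN and 13.4 to 29.3 CPM in sham vehicle, those of neutrophils to 0.775 to 10.7 and 2.08 to 8.76 CPM, those of B cells to 3.94 to 10.6 and 10.1 to 13.3 CPM, and those of T and NK cells to 0.775 to 1.95 and 1.75 to 6.82 CPM. Of 5 tested platelet genes 4 had log2 folds below 0, with a median of -0.29 and 0 at an unadjusted p under 0.05. Ighm, the antibody heavy chain of B cells and the 1 tested gene of its list, had 2.58, 4.30, 3.09 and 8.70 CPM in sham NMN, against 6.40, 6.35, 8.50 and 9.57 CPM in sham vehicle (log2 fold -0.73 ± 0.33). Cd4, a co-receptor of helper T cells and the 1 tested gene of the T and NK list, averaged 0.448 CPM in sham NMN and 1.01 CPM in sham vehicle (-1.15 ± 0.40, unadjusted p = 0.0165 in edgeR), with groups that overlapped. The part that blood left in the hearts plays in these values was not tested.

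**Figure D3:**
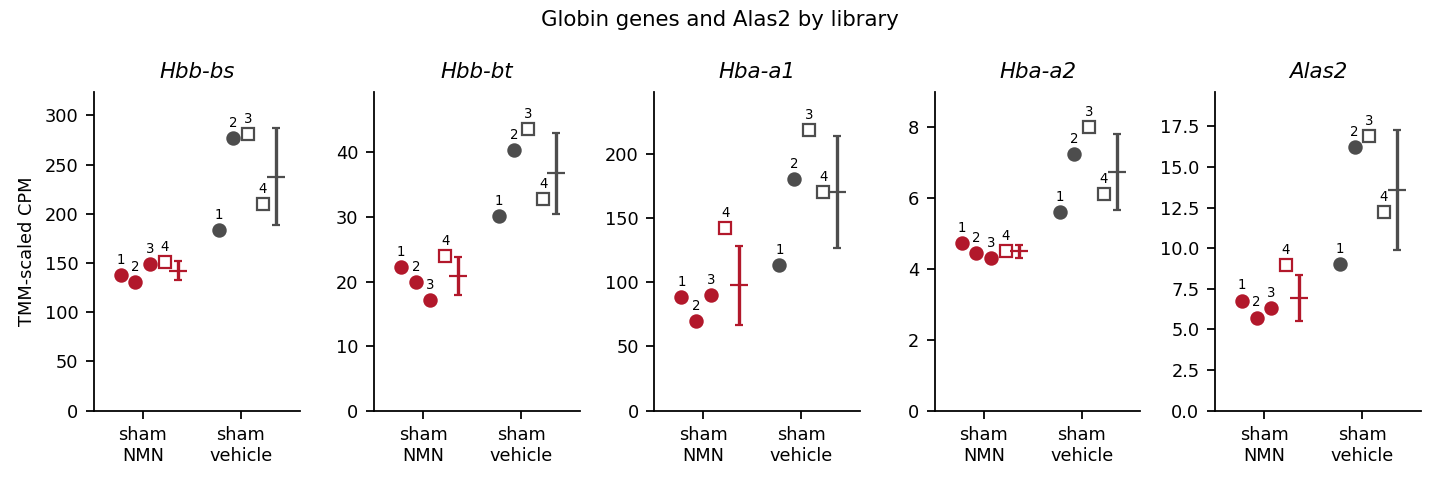
TMM-scaled CPM of 4 globin genes and Alas2 in each sham library, with sham NMN left of sham vehicle and mean ± SD beside the points; filled circles are the larger set of libraries, open squares the smaller set and numbers the replicates. In 4 of the 5 panels all NMN points lie below all vehicle points, and in the Hba-a1 panel replicate 4 of sham NMN, at 142 CPM, lies above replicate 1 of sham vehicle, at 113 CPM.

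No gene listed for NAD synthesis from NMN or other precursors was called. The list also holds Nadk, Nadk2, Nnt and Slc25a51, which do not make NAD from precursors. Of 20 genes listed, 13 were tested: 5 had log2 folds above 0 and 8 below, and the median was -0.06, against 0.00 for all genes. Nampt, which makes NMN from nicotinamide, had 352, 334, 389 and 245 CPM in sham NMN, against 302, 372, 248 and 226 CPM in sham vehicle. The 2 groups overlapped, the low values were those of the smaller set of libraries, and the log2 fold was 0.20 ± 0.17 (95% interval -0.17 to 0.58) or 0.08 with the split as a term. The enzymes that turn NMN into NAD had narrow intervals, with log2 folds of -0.08 ± 0.09 for the nuclear Nmnat1 (-0.28 to 0.13) and -0.06 ± 0.08 for the mitochondrial Nmnat3 (-0.25 to 0.12).

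Nmrk2 (chr10:81198170-81202051, minus strand), the muscle form of nicotinamide riboside kinase, was the 1 gene of those 13 with an unadjusted p under 0.05, beside 4.64% of all genes. It had 6.46, 6.77, 7.32 and 8.42 CPM in sham NMN, against 19.2, 8.83, 10.7 and 9.14 CPM in sham vehicle. The groups did not overlap, but replicate 1 of sham vehicle stood well above the rest, and the log2 fold of -0.73 ± 0.24 (unadjusted p = 0.0119) ranged from -1.04 to -0.40 over the alternatives. Nmrk1, the form found in most tissues, had a log2 fold of 0.09 ± 0.17.

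Genes for the uptake and breakdown of NMN and nicotinamide gave 5 folds above 0 and 5 below among the 10 tested of 15, with a median of 0.01. Nt5e, the surface nucleotidase CD73 that can remove the phosphate from NMN outside the cell, had 29.8, 26.6, 25.7 and 29.0 CPM in sham NMN, against 13.5, 26.3, 25.3 and 17.8 CPM in sham vehicle. Its values overlapped, with replicates 1 and 4 of sham vehicle low, and its log2 fold was 0.42 ± 0.18 (unadjusted p = 0.0416). Slc12a8, reported as an NMN transporter in mouse gut, had 0.129, 0.260, 0.605 and 0.207 CPM in sham NMN and 0.497, 0.267, 0.130 and 0.618 CPM in sham vehicle, near the level of 3 counts, and was not tested. Nnmt and Aox1, which methylate and oxidise nicotinamide products for clearance, had log2 folds of -0.30 ± 0.27 and 0.10 ± 0.20, and Slc29a1, a nucleoside transporter, one of -0.15 ± 0.10.

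The enzymes that use NAD were also close to 0. All 7 sirtuins were tested and all 7 intervals lay within a 2-fold change, with a median log2 fold of 0.04. Sirt1, the nuclear deacetylase, had 18.5, 18.7, 20.8 and 18.8 CPM in sham NMN, against 19.8, 15.8, 14.1 and 13.5 CPM in sham vehicle (log2 fold 0.28 ± 0.12, unadjusted p = 0.0421). Sirt4, a mitochondrial sirtuin, had 14.4, 13.3, 14.9 and 16.5 CPM in sham NMN and 17.3, 17.1, 18.2 and 16.8 CPM in sham vehicle (-0.23 ± 0.09, unadjusted p = 0.0261). The Sirt4 groups did not overlap, and those of Sirt1 overlapped through replicate 1 of sham vehicle. Sirt3, the main mitochondrial deacetylase, had a log2 fold of -0.14 ± 0.08 and Sirt7, found in the nucleolus, one of 0.18 ± 0.10.

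Among the PARP enzymes and Cd38, 8 folds were above 0 and 7 below in the 15 tested of 16, the median was 0.01 and all 15 intervals lay within a 2-fold change. Parp1, which spends NAD at DNA breaks, had a log2 fold of -0.04 ± 0.09 (95% interval -0.23 to 0.15). Cd38, a surface enzyme that splits NAD, had 13.3, 15.8, 13.8 and 15.5 CPM in sham NMN, against 15.6, 14.3, 23.7 and 26.4 CPM in sham vehicle. Its 2 high vehicle libraries were those of the smaller set, and its log2 fold of -0.46 ± 0.19 was -0.29 with the split as a term. The NMN library of that set, at 15.5 CPM, was not high. Ppargc1a, the coactivator PGC-1 alpha that sirtuins act on, had 184, 170, 180 and 146 CPM in sham NMN and 138, 163, 134 and 124 CPM in sham vehicle (log2 fold 0.28 ± 0.10, or 0.22 with the split). It was the 1 gene of 19 regulators of mitochondrial biogenesis with an unadjusted p under 0.05, beside 4.64% of all genes.

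**Figure D4:**
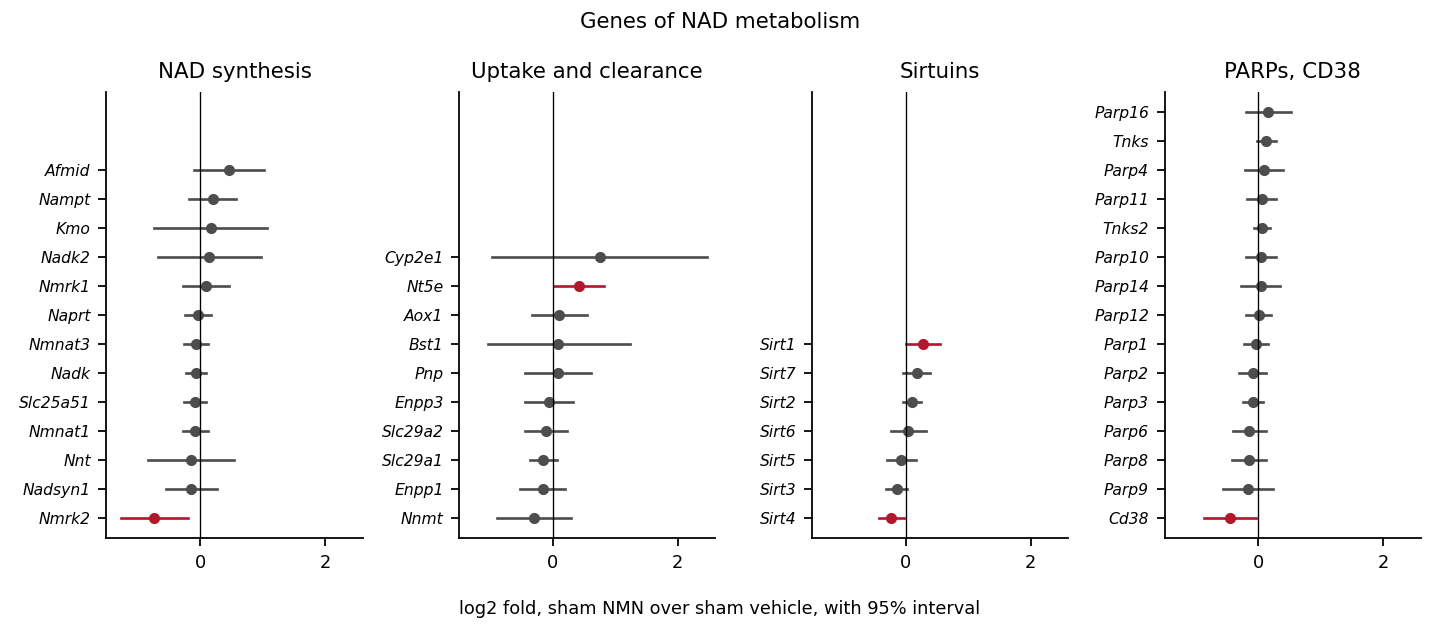
Log2 folds of sham NMN over sham vehicle with 95% intervals for the tested genes of NAD synthesis, of NMN and nicotinamide uptake and clearance, of the sirtuins and of the PARPs with Cd38. Red marks an unadjusted p under 0.05 (Nmrk2, Nt5e, Sirt1, Sirt4 and Cd38); the other intervals cross 0, and none of the genes passed the adjusted threshold.

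Beyond these lists, the 12 genes with the smallest p in each direction were described, which fixes their direction and makes them no evidence of it. Their adjusted p was 0.924 throughout in edgeR. Hecw2 (chr1:53806876-54195168, minus strand), a ubiquitin ligase, had 36.7, 37.1, 44.9 and 28.8 CPM in sham NMN, against 21.2, 29.2, 18.5 and 20.1 CPM in sham vehicle. Its groups met at replicate 4 of sham NMN and replicate 2 of sham vehicle, and its log2 fold was 0.73 ± 0.16. Tnfrsf25, death receptor 3 of the tumour necrosis factor receptor family, had 9.36, 6.97, 7.53 and 5.45 CPM in sham NMN and 5.09, 3.88, 4.09 and 3.64 CPM in sham vehicle (0.81 ± 0.19). Pde7a, which breaks down cyclic AMP, had 78.1, 67.9, 82.9 and 56.1 CPM in sham NMN and 51.7, 56.6, 44.1 and 45.0 CPM in sham vehicle (0.53 ± 0.13). The rest of the higher 12 ran from 0.31 for Nbeal2, needed for platelet granules, to 1.22 for Cfap74, a protein of cilia. Between them lay Atp7a, a copper pump (0.61), Mertk, a macrophage receptor for dying cells (0.55), Fibin (0.68), Clec1a, a lectin-like receptor of endothelium (0.45), Prlr, the prolactin receptor (0.45), Gm6852, a processed pseudogene (1.02), and Gm6277, an antisense transcript (1.11) whose reads cannot be told from those of the opposite strand with this library kit. Of these 12, 10 had groups that did not overlap, Hecw2 and Pde7a being the exceptions, beside 1.43% of all genes on the higher side. A choice by smallest p favours such genes, so this count is no further evidence.

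Of the 12 lowest, 4 were the red cell genes Hbb-bt, Hbb-bs, Alas2 and Hba-a2. Irx4 (chr13:73260479-73269608), a transcription factor of ventricular muscle, had 30.6, 28.8, 28.7 and 35.3 CPM in sham NMN, against 42.1, 39.1, 42.4 and 41.4 CPM in sham vehicle. Its groups stood apart, with a log2 fold of -0.42 ± 0.08 (unadjusted p = 0.000403) and of -0.39 with the split as a term. Bin1, which shapes the transverse tubules of heart muscle cells, had 6.85, 6.83, 7.19 and 7.59 CPM in sham NMN and 9.44, 9.03, 9.34 and 10.5 CPM in sham vehicle (-0.43 ± 0.11). The others were Pik3r3, a regulatory subunit of phosphoinositide 3-kinase (-0.42), Lrrc3b (-0.50), Mvd of cholesterol synthesis (-0.46), Tst, a mitochondrial sulfurtransferase (-0.37), Arfip1 (-0.90) and Bahcc1 (-0.54). All 12 had groups that did not overlap, beside 1.08% of all genes on the lower side, which the choice by smallest p again favours.

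Genes that glucocorticoid hormones switch on had folds on 1 side of 0, in part along the split. All 14 tested of 15 had log2 folds above 0, with a median of 0.41 (0.26 with the split as a term, and 0.25 to 0.65 over the settings); 4 had an unadjusted p under 0.05 with a higher level, beside 2.63% of all genes (9 with the split, beside 3.3%), and 0 were called. Zbtb16 (chr9:48654297-48836222, minus strand), a zinc finger factor strongly induced by glucocorticoids, had 247, 275, 276 and 80.6 CPM in sham NMN, against 81.4, 139, 61.2 and 70.0 CPM in sham vehicle. Replicates 1 to 3 of sham NMN stood above every other library and replicate 4 did not, and the log2 fold was 1.32 ± 0.36, or 0.95 with the split. Fkbp5, a chaperone that damps the glucocorticoid receptor, had 98.1, 75.2, 111 and 28.1 CPM in sham NMN and 34.4, 64.3, 28.4 and 19.6 CPM in sham vehicle (1.09 ± 0.42, or 0.72 with the split). Replicate 4 was again the lowest in sham NMN and replicate 2 the highest in sham vehicle, which came close to replicate 2 of sham NMN. Dusp1, a phosphatase of MAP kinases, had 70.1, 61.8, 59.1 and 73.4 CPM in sham NMN, against 55.6, 58.1, 50.4 and 57.1 CPM in sham vehicle. Its groups did not overlap, its log2 fold was 0.26 ± 0.09, and it did not follow the split (0.27 with it). Of these 14 genes, 10 were lower in the smaller set of libraries, beside 6.91% of all genes, and that set holds 1 NMN and 2 vehicle hearts; the part that this imbalance plays in the folds was not tested.

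Among fasting and inflammatory genes, Pdk4 and Serpina3n had higher mean levels in sham NMN, and neither passed the adjusted threshold. Pdk4, the kinase that closes pyruvate dehydrogenase in fasting, had 249, 281, 412 and 366 CPM in sham NMN, against 103, 202, 255 and 224 CPM in sham vehicle (log2 fold 0.74 ± 0.25, or 0.89 with the split, unadjusted p = 0.0133). Only replicate 3 of sham vehicle exceeded the lowest NMN heart. Angptl4, a lipase inhibitor of fasting, had 3.16, 3.06, 5.58 and 11.2 CPM in sham NMN and 1.99, 1.74, 5.32 and 5.19 CPM in sham vehicle. The fasting list as a whole had 5 folds above 0 and 6 below, with a median of -0.03. Serpina3n, an acute-phase protease inhibitor, had 14.4, 10.5, 25.0 and 10.6 CPM in sham NMN, against 8.38, 9.36, 5.90 and 5.81 CPM in sham vehicle. The groups of Serpina3n did not overlap and its log2 fold was 1.04 ± 0.28 (unadjusted p = 0.00412). The 11 tested inflammatory mediators, of which it is 1, had a median of -0.08.

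All 15 tested genes of the integrated stress response had log2 folds above 0, with a median of 0.09, and 11 to 15 of them did so over the alternatives; 3 had an unadjusted p under 0.05 with a higher level, beside 2.63% of all genes. Chac1, which degrades glutathione, had 3.42, 5.14, 5.11 and 2.90 CPM in sham NMN, against 2.73, 2.54, 1.30 and 2.59 CPM in sham vehicle (0.85 ± 0.28). Phgdh, the first enzyme of serine synthesis, had a log2 fold of 0.78 ± 0.27 at about 1 CPM, and Slc3a2, a subunit of amino acid transporters, one of 0.26 ± 0.09. The groups of Chac1 and of Phgdh did not overlap, as for 1.43% of all genes on the higher side, and those of Slc3a2 did. Targets of p53 and of NRF2 and the chaperones had medians of 0.07, 0.04 and 0.05. Hmox1, the haem oxygenase, had 8.78, 8.79, 23.0 and 6.28 CPM in sham NMN and 8.07, 8.36, 5.45 and 6.67 CPM in sham vehicle, with replicate 3 of sham NMN alone at the top.

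Energy and contraction genes, the most abundant of the heart, had small folds that mostly lay below 0. Of 44 nuclear subunits of oxidative phosphorylation 38 had log2 folds below 0, with a median of -0.12 that ranged from -0.16 to 0.02 over the settings; 0 had an unadjusted p under 0.05. Cox4i1, a subunit of cytochrome oxidase, had 552, 545, 500 and 510 CPM in sham NMN, against 516, 539, 706 and 672 CPM in sham vehicle. The 2 high vehicle hearts belonged to the smaller set, but the NMN library of that set, at 510 CPM, was not high. The 12 tested mitochondrially encoded transcripts had a median of -0.03, the 23 genes of fatty acid uptake and oxidation one of -0.07 with 21 below 0, the 21 of glycolysis one of -0.09 and the 19 of the citric acid cycle one of -0.06. Decr1, which helps to oxidise unsaturated fatty acids, had 399, 370, 399 and 356 CPM in sham NMN and 417, 444, 453 and 403 CPM in sham vehicle (-0.17 ± 0.07). Gapdh, a glycolytic enzyme, had 300, 282, 286 and 292 CPM in sham NMN, against 318, 306, 399 and 361 CPM in sham vehicle, without overlap (-0.25 ± 0.08).

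The main contractile genes had log2 folds near 0. Myh6, the adult heavy chain of mouse heart myosin, had a log2 fold of -0.03 ± 0.08 (95% interval -0.22 to 0.15), Myh7, the slow chain that returns in failing mouse hearts, one of 0.03 ± 0.32, and Atp2a2, the calcium pump of the sarcoplasmic reticulum, one of 0.00 ± 0.06. Of 18 sarcomere genes 12 had folds below 0, among them Tpm1, tropomyosin, with 7160, 7260, 7080 and 6880 CPM in sham NMN and 7420, 7540, 8800 and 8130 CPM in sham vehicle. The Tpm1 groups did not overlap, and its log2 fold was -0.17 ± 0.07. Nppb, the stretch-induced natriuretic peptide, had 72.1, 62.0, 75.9 and 60.5 CPM in sham NMN, against 78.8, 33.4, 206 and 241 CPM in sham vehicle. Its log2 fold of -1.05 ± 0.47 rested on the 2 vehicle hearts of the smaller set: it was -0.42 with the split as a term and ran from -1.38 to 0.31 over the alternatives. The NMN library of that set did not share the high level, at 60.5 CPM. Gja1, the gap junction protein connexin 43, had 305, 297, 314 and 498 CPM in sham NMN, against 488, 382, 514 and 501 CPM in sham vehicle (-0.41 ± 0.16). Replicate 4 of sham NMN alone reached the level of the vehicle hearts.

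Translation, matrix and immune lists gave 0 calls too. Of 30 cytosolic ribosomal proteins 28 had log2 folds below 0, with a median of -0.09 (-0.11 to -0.01 over the settings). Collagens and matrix genes had a median of -0.06, which was 0.15 with the split as a term, and 16 of 28 were higher in the smaller set of libraries, beside 4.66% of all genes. Interferon-stimulated genes had a median of -0.16, or -0.01 with the split. Macrophage markers had a median of 0.05, with Cd163, the haemoglobin scavenger receptor, at 34.6, 35.3, 35.1 and 22.4 CPM in sham NMN and 21.8, 31.4, 18.2 and 19.5 CPM in sham vehicle (0.49 ± 0.19). Endothelial markers had a median of -0.07. Fibroblast markers had one of -0.01 (0.01 with library totals only, 0.07 with the split), which ran from -0.18 to 0.09 over the settings. Of the 8 fibroblast markers 4 were higher in the smaller set, beside 4.66% of all genes. Adipocyte markers had a median of 0.46, which ran from -0.41 to 0.99 over the settings.

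**Figure D5:**
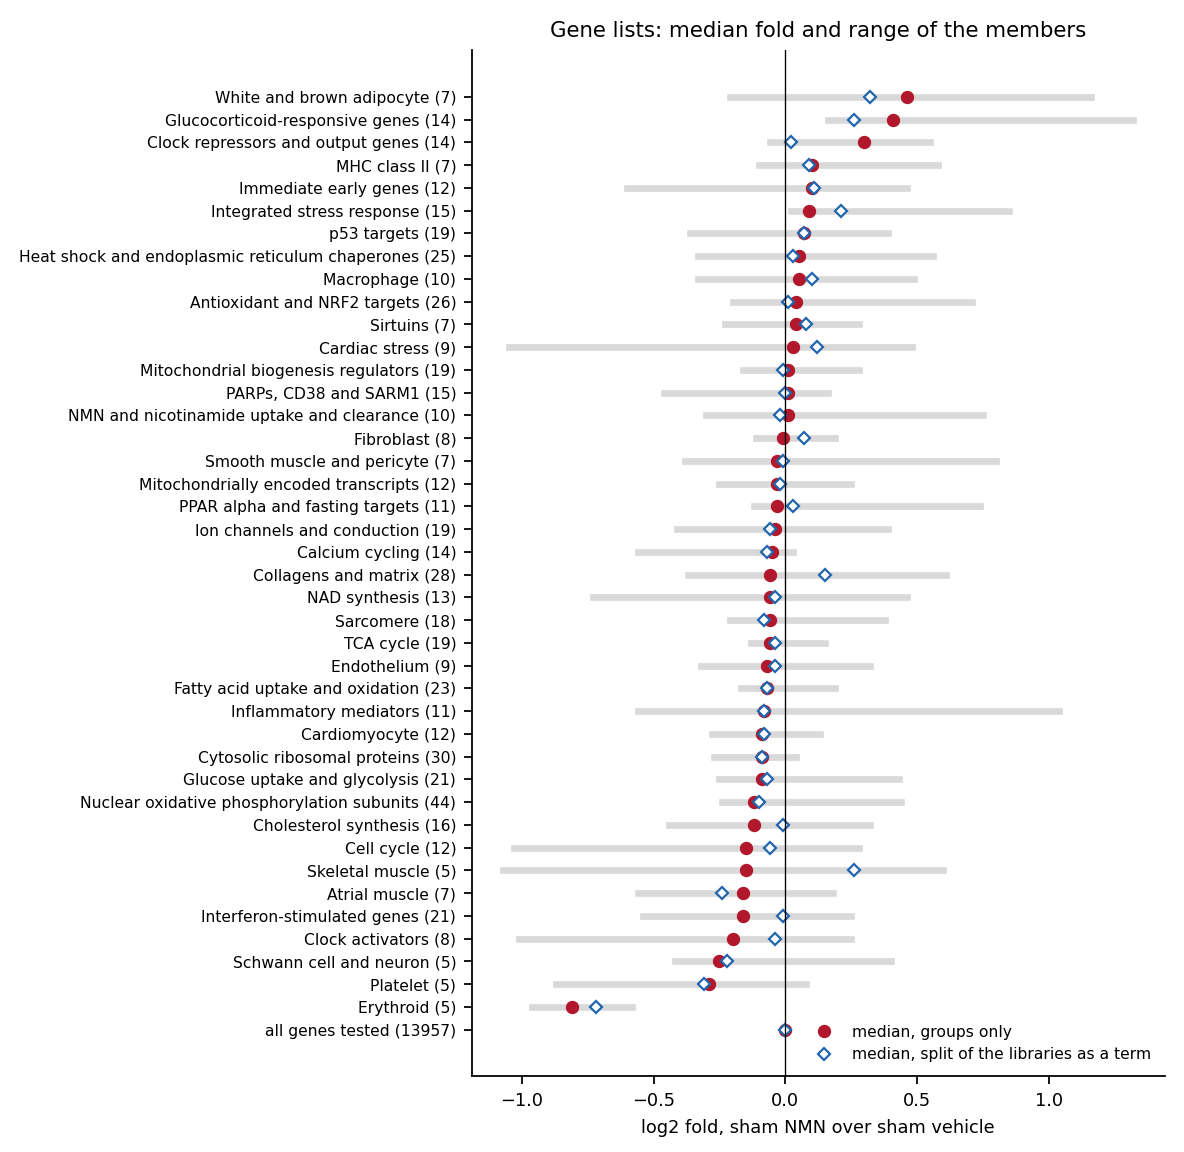
Median log2 fold of sham NMN over sham vehicle for each list with at least 5 tested genes (number tested in brackets), without (red) and with (blue) the split as a term; grey bars span the members. The red cell list lies lowest, at -0.81, and the adipocyte and glucocorticoid lists highest, at 0.46 and 0.41, while the clock repressor median of 0.30 is 0.02 with the split.

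Restricting the comparison to the larger set, with 3 sham NMN and 2 sham vehicle hearts, gave 5 calls among 14299 genes (0.035%), named here after their values were seen. Slc7a1, a transporter of arginine and lysine, had 45.1, 37.6 and 38.8 CPM in sham NMN, against 68.4 and 79.2 CPM in sham vehicle (-0.87 ± 0.10, adjusted p = 0.0251 in edgeR). The mitochondrially encoded mt-Co2 had 490, 534 and 446 CPM in sham NMN, against 312 and 312 CPM in sham vehicle (0.65 ± 0.07, adjusted p = 0.0251). Both rested on that set: in all 8 hearts the log2 folds were -0.47 and 0.25, since the vehicle hearts of the smaller set had 45.0 and 41.1 CPM of Slc7a1 and 478 and 484 CPM of mt-Co2. The others were Ppp1r3c, which promotes glycogen synthesis (0.58), Zbtb16 (1.27), and Ubxn10, a protein of cilia (-1.58), each with an adjusted p of 0.0446. In all 8 hearts these 3 had log2 folds of 0.14, 1.32 and -0.71.

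The effect of NMN differed between doxorubicin and sham mice, which was tested as a difference of the 2 effects over all 16 libraries. It was called for 2714 of 14716 genes (18.4%), 1396 with a higher and 1318 with a lower NMN effect in doxorubicin mice. The balance moved with the scaling, with 1602 higher and 1067 lower under upper-quartile scaling and 1073 higher and 1425 lower under library totals only; with the split as a term it was 1806 higher and 1734 lower. Without that term, the fit called 5336 genes (36.3%) between doxorubicin NMN and doxorubicin vehicle mice and 0 between the sham groups. Its estimate of spread is shared with the doxorubicin libraries (common dispersion 0.0377, against 0.022 in the fit of the sham libraries). Between the sham groups it gave 342 genes (2.32%) at an unadjusted p under 0.05 in edgeR, against 648 (4.64%) in the sham fit. The part this plays in the 0 was not tested. The count of differences was 1757 without replicate 3 of sham NMN, 4178 and 1783 without replicates 2 and 4 of doxorubicin vehicle, and 1722 and 1720 without replicates 2 and 3 of doxorubicin NMN. Myh6 averaged 20900 ± 7140 CPM in doxorubicin NMN and 3630 ± 1270 CPM in doxorubicin vehicle hearts (SD, n = 4 each; log2 fold 2.52), beside -0.03 in sham hearts, a difference of 2.56 ± 0.35 (adjusted p = 0.000428 in edgeR). Serpina3n averaged 17.2 ± 13.1 CPM in doxorubicin NMN and 424 ± 233 CPM in doxorubicin vehicle hearts (log2 fold -4.62), beside 1.04 in sham hearts. Pdk4 averaged 218 ± 112 CPM in doxorubicin NMN and 2630 ± 2680 CPM in doxorubicin vehicle hearts (-3.59), beside 0.74 in sham hearts. Their differences were -5.65 ± 0.68 and -4.32 ± 0.99. Irx4 had log2 folds of 0.89 in doxorubicin and -0.42 in sham hearts (difference 1.32 ± 0.22, adjusted p = 0.00151), and Hecw2 of -0.51 and 0.73 (-1.24 ± 0.22, adjusted p = 0.00184).

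Of the NAD genes, Aox1 averaged 66.2 ± 32.7 CPM in doxorubicin NMN and 280 ± 73.1 CPM in doxorubicin vehicle hearts (log2 fold -2.08), beside 0.10 in sham hearts, a difference of -2.17 ± 0.39 (adjusted p = 0.00225 in edgeR). Sirt3 had log2 folds of 0.89 in doxorubicin and -0.14 in sham hearts (difference 1.04 ± 0.27, adjusted p = 0.016). For Nampt the difference was -0.33 ± 0.24 and for Nmrk2 0.51 ± 0.44, neither of which passed. Red cell genes in doxorubicin hearts hung on 1 library: Hbb-bs ran from 0 to 174 CPM in doxorubicin NMN, with replicate 3 highest, and from 0 to 1.05 CPM in doxorubicin vehicle hearts. Without that library the difference for Hbb-bs was not called (adjusted p = 0.15).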

How the data were processed

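RNA was isolated with TRIzol, and 2 µg per library was taken into library preparation with NEBNext Ultra RNA reagents, a kit without strand marking, per the labels' protocols. HISAT2 2.1.0, HTSeq 0.6.0 and GRCm38 (mm10) are named in the submitters' processing notes; nothing in the sources used here names an annotation release, a strand option or a read filter. The values used are the authors' deposited read counts per gene, not normalized. The deposited FPKM values, which equal the counts over the library total and 1 length per gene, entered 3 alternatives only. Depth was 14091967 to 16134402 counts per sham library. Of 30884 gene identifiers, 30095 (97.4%) matched GENCODE M21, from which positions and gene types were taken.

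The counts were tested with edgeR 4.0.16 in R 4.3.3 (TMM scaling, filterByExpr, quasi-likelihood test, Benjamini-Hochberg adjustment over all genes tested, called at an adjusted p under 0.05). The sham comparison used the 8 sham libraries, and the difference from doxorubicin mice used all 16. SE is the absolute log2 fold over the square root of F. Alternatives used DESeq2 1.42.0, limma 3.58.1 (voom with and without library weights, and log2(FPKM + 0.1) or log2(FPKM + 1)), other scalings and filters, the replicate block, the split and the clock contrast as terms, and each library left out. The scripts were tested on simulated data.

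Groups came from the labels. The 47 gene lists, the alternatives and the genes named were chosen with earlier results of these data known. Named were the called genes or, failing 12 in a direction, those with the smallest p up to 12 with a mean of at least 1 CPM in the higher group, a fixed set of NAD, clock and heart genes, and the leading members of lists; genes outside the rule are said to be chosen after their values were seen. Same-numbered libraries of both groups had correlations of their deviations of 0.08, 0.23, -0.10 and 0.43. Replicates 1 and 2 lay in the larger set and replicate 4 in the smaller set in every group. Replicate 3 lay in the larger set in both NMN groups and in the smaller set in both vehicle groups. The numbers thus follow the split in part, and they were not used as pairs in the main test. Counts of replicates differed by 3.8 to 24.1 in chi-square per gene, above sampling noise, so no library was counted as a repeat. No other column of per-sample values was left unused.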

Additional observations from a re-analysis of the deposited data

Results flagged for a closer look

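The highest or lowest library stood apart from the other 3 in 23 of 222 groups of 4 libraries tested. Its gap was a larger share of the group's range than Dixon's 95% critical value. Some of the genes were named after their values were seen, and several follow the same split. The nominal rate of about 1 group in 20 is therefore no yardstick for this count. Of the 23, 16 were in sham NMN, and 14 of the 16 were replicate 4, the only NMN library of the smaller set. Clock genes made up a part of them: replicate 4 of sham NMN had 23.7 CPM of Arntl, 8.76 of Npas2, 67.2 of Clock, 6.14 of Per2, 9.52 of Dbp and 110 of Tef, with a clock contrast of -0.13. The same library had 498 CPM of Gja1, 80.6 of Zbtb16, 157 of Myh11, 19.0 of Cnn1, 22.4 of Cd163, 19.0 of Cfd and 5.94 of Spon2. Replicate 3 of sham NMN had 20.8 CPM of Sirt1 and 23.0 of Hmox1. In sham vehicle, replicate 1 had 0.621 CPM of Gm6277, replicate 2 had 501 of Aqp1, replicate 3 had 1.30 of Chac1 and 48.0 of Myh11, and replicate 4 had 1.91 of Gm6852, 6.55 of Prlr and 614 of Gm28438.

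The NMN effect differed between doxorubicin and sham mice in 2714 genes, 41 of which are named here, as log2 differences of the effect in doxorubicin mice minus that in sham mice. Of the 41, 28 were called whichever library was left out, 28 without replicate 3 of doxorubicin NMN and 40 with the split as a term. Among genes leading the sham comparison the differences were -1.24 for Hecw2, -0.69 for Clec1a, 1.32 for Irx4, 0.81 for Bin1, 1.31 for Lrrc3b and 1.08 for Bahcc1. For NAD genes they were 0.43 for Nmnat3, -2.17 for Aox1, 0.90 for Slc29a1, -0.90 for Sirt1, 1.04 for Sirt3, 0.68 for Sirt4, -0.61 for Sirt7, 0.52 for Parp1 and -0.66 for Tnks. Among these NAD genes only Aox1, Sirt3 and Tnks stayed called whichever library was left out. Muscle and energy genes gave 2.56 for Myh6, 2.98 for Actc1, 0.70 for Atp2a2, -2.99 for Ankrd1, -3.19 for Ccn2, 1.74 for Gja5, 0.81 for Cycs, 1.45 for Ppp1r3c, -4.32 for Pdk4, -5.36 for Angptl4 and -1.37 for Plin4. Stress genes gave -5.82 for Hmox1, -2.27 for Cdkn1a, -2.0 for Zbtb16, -2.65 for Fkbp5, -3.48 for Mt1, -1.83 for Slc3a2, -5.65 for Serpina3n and -2.83 for Map3k6. The cell type markers Emcn and Ighm gave 0.76 and 3.67, and Gm28438 gave 3.54.

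For red cell genes the fitted differences were 7.66 for Hbb-bt, 7.57 for Hbb-bs, 6.47 for Hba-a1 and 4.31 for Alas2. Some doxorubicin libraries held 0 counts of the beta-globin genes, so these fitted values depend on the prior count and are no bound. Without replicate 3 of doxorubicin NMN they were 1.24, 2.12, 1.37 and 0.69 and not called (adjusted p = 0.531, 0.15, 0.299 and 0.546 in edgeR). Leaving out that library ended further calls, of Bin1, Nmnat3, Sirt1, Sirt4, Sirt7, Parp1, Slc29a1, Angptl4 and Gm28438, with adjusted p between 0.0517 and 0.0858 in edgeR. Their differences without it were 0.77, 0.46, -0.81, 0.62, -0.56, 0.47, 0.83, -5.21 and 3.52, close to those with it. These calls did not hang on that library alone. Of 16 fits that each left out 1 library, Bin1 stayed called in 3 and Nmnat3 and Gm28438 in 4. Sirt4 and Slc29a1 stayed called in 6, Sirt1 and Alas2 in 7, Sirt7 in 8, and Parp1 and Angptl4 in 12.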

How the results depend on the processing

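The count of 0 called genes held under every scaling, limma fit and added term and without each library in turn (0 to 0), with 3 exceptions: 2 genes, both list members, were called without the low-count filter and 2 by DESeq2 (Hbb-bs and Hbb-bt in both), and 5 genes, 2 of them list members, in the larger set alone. At an unadjusted p under 0.05 the count was 648, and 355 to 1431 without 1 library, 1154 without the filter, 1350 in limma-voom with library weights and 342 with all 16 libraries. That last count was also 342 with all 16 libraries and the split as a term, an alternative chosen after seeing the data. The share of genes whose interval lay within a 2-fold change was 83.8 to 85.6% and the mitochondrial difference -0.845 to -0.0906 percentage points without 1 library; without the filter that share was 47.2% of 26535 genes. The count of differences between doxorubicin and sham mice was 1720 to 4178 without 1 library and 7010 in limma-voom with library weights, and the cause was not tested. The replicate block gave 0 calls, 887 genes at an unadjusted p under 0.05 and 2614 differences. As the replicate numbers follow the split only in part, this block is a check only. For the 107 named genes with a fold, 24 alternatives gave 2554 values. Of these, 2438 stayed uncalled and within 1 SE of the main fold, and 107 stayed uncalled but moved by at least 1 SE. A further 9 became called and 0 reversed as called genes, while 22 genes changed sign uncalled in 49 values. Depth limits genes near 3 counts, and 4 libraries per group limit the rest.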

Other observations

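The genes below were chosen after their values were seen. Gm28438, an unprocessed pseudogene (chr1:24612775-24613119), had the lowest fold of all genes tested, with 26.1, 23.7, 22.4 and 14.6 CPM in sham NMN, against 23.8, 23.1, 22.6 and 614 CPM in sham vehicle. Its log2 fold of -2.98 ± 1.06 rested on replicate 4 of sham vehicle and was -0.10 without it. Of the 7 tested genes of smooth muscle and pericytes, whose median log2 fold was -0.03, Cnn1 and Myh11 were high in 1 heart. Cnn1, calponin, had 2.26, 1.43, 1.55 and 19.0 CPM in sham NMN, against 3.85, 2.01, 2.66 and 5.25 CPM in sham vehicle, and Myh11, smooth muscle myosin, had 44.2, 37.8, 51.7 and 157 CPM, against 54.6, 55.3, 48.0 and 54.3 CPM in sham vehicle. The fat genes Cfd and Car3 were highest in the same library, with 0.517, 2.41, 0.941 and 19.0 CPM of Cfd in sham NMN, against 1.30, 2.27, 0 and 6.55 CPM in sham vehicle, and 2.45, 5.40, 1.21 and 23.5 CPM of Car3, against 3.04, 4.01, 0.195 and 8.77 CPM in sham vehicle.

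Spon2, Gm23935 and Kdr, which are not clock genes, followed the 2 sets of libraries. Spon2, a secreted matrix protein, had 0.452, 0.781, 0.403 and 5.94 CPM in sham NMN, against 0.621, 0.669, 11.3 and 14.1 CPM in sham vehicle. Gm23935 ran the other way, with 91.1, 190, 38.0 and 1.86 CPM in sham NMN, against 18.9, 92.6, 2.34 and 0.741 CPM in sham vehicle. Kdr, the main receptor of vascular endothelial growth factor, had 124, 141, 127 and 200 CPM in sham NMN and 138, 126, 234 and 240 CPM in sham vehicle. Map3k6, a stress kinase, had 44.8, 42.4, 54.1 and 16.6 CPM in sham NMN, against 15.3, 39.7, 10.4 and 7.53 CPM in sham vehicle. It did not divide by the sets, since replicate 1 of sham vehicle lay below replicate 4 of sham NMN.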
